A study of Mus musculus with 13 samples.

Results

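The genes described here follow the oligodendrocyte lineage of the mouse cortex from precursor cell to myelin sheath. They are 36 genes chosen by name from knowledge of the lineage, with earlier results of these data known. They come from the 13482 genes present in all 3 of the authors' deposited comparison tables, and all 36 were found in each table. By role, 10 are precursor or committed-precursor genes (Pdgfra, Cspg4, Vcan, Matn4, Tnr, Lhfpl3, Gpr17, Bcas1, Enpp6 and Sox6). Another 5 are transcription factors of the lineage (Sox10, Olig1, Olig2, Nkx6-2 and Myrf), and 21 are genes of myelin and the mature cell. Cortical RNA was sequenced from males 18 months old, in 3 groups that differed in progranulin, the secreted and lysosomal protein encoded by Grn. The groups were 5 wild-type mice (Grn+/+), 4 mice with 1 intact copy of Grn (Grn+/-) and 4 mice that lacked mouse Grn and carried a human progranulin transgene (Grn-/-; GRNtg). The submitters call the second group mouse progranulin deficient and the third humanized progranulin deficient. The promoter and copy number of the transgene and the strain background of the mice could not be found in the labels. The third group therefore differed from wild type both in the loss of the mouse gene and in the presence of the transgene, and no group had the transgene alone or the deletion alone.

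Oligodendrocyte precursor cells are dividing glia that persist in the adult brain. They carry a receptor for platelet-derived growth factor and a coat of chondroitin sulfate proteoglycans. A precursor that commits to differentiate passes through a short stage marked by Gpr17, Bcas1 and Enpp6, and then turns on the enzymes and structural proteins of myelin under Sox10 and Myrf. Myelin is the lipid-rich membrane wrapped around axons, and its messenger RNAs are among the most abundant of the mature cell. In bulk tissue, fewer cells of a type and less RNA per cell cannot be told apart.

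The deposited tables hold, for each gene, a mean normalized read count over mice, the log2 fold change and its SE (standard error), a Wald statistic, a p-value and a p-value adjusted by the Benjamini-Hochberg method over the genes of the table. They hold no value for a single mouse, so the spread between mice enters only through the authors' SE, and whether the groups overlap cannot be read from them. A percent of the comparison group below is 2 raised to the log2 fold change, and its 95% interval is the fold change plus or minus 1.96 SE. No SE in the tables exceeds 0.138, a limit that a zero-centred prior on the fold changes would give. Whether such a prior was used is not stated; if it was, fold changes are pulled towards 0, percents towards 100%, and the intervals are those of the model. A gene is called here where the authors' adjusted p was under 0.05. The summed mean normalized count over genes was 18113972. No depth for a single mouse is given there. The genotype labels were checked first on Grn, for which the authors' deposited tables give a mean normalized count of 784. Its level was 63.6% of wild type in Grn+/- mice (log2 fold change -0.65 ± 0.077 SE, adjusted p = 2.9e-13) and 24.7% in Grn-/-; GRNtg mice (-2.02 ± 0.081 SE, adjusted p = 5.8e-131). Both directions are those of the labels; the reads remaining in Grn-/-; GRNtg mice were not examined here.

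The promoters of a few members show what lies at their start sites, and those printed are of 1 gene called in Grn+/- mice (Vcan), 1 called in Grn-/-; GRNtg mice (Ugt8a) and 3 myelin genes, Cnp, Opalin and Hapln2, that hold a motif of the factor Myrf. Each runs from 250 bases before to 50 bases after the annotated start (RefSeq, GRCm38.p6), 5′ to 3′ on the strand of the gene. They lie at chr13:89742463-89742762 (minus strand), chr3:125938603-125938902 (minus), chr11:100574689-100574988 (plus), chr19:41077064-41077363 (minus) and chr3:88027462-88027761 (minus), in the order printed. Capitals mark any of 4 short motifs on either strand: the E-box form CAGCTG, its variant form CATCTG (E-boxes are the kind of site that helix-loop-helix factors such as Olig2 bind), the core ACAAT that Sox factors bind, and the core CTGGCAC that Myrf binds.
Vcan: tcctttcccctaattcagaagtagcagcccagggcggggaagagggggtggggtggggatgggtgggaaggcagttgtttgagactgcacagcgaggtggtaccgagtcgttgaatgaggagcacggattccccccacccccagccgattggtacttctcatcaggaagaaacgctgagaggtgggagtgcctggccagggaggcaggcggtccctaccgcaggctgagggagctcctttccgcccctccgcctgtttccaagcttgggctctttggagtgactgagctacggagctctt
Ugt8a: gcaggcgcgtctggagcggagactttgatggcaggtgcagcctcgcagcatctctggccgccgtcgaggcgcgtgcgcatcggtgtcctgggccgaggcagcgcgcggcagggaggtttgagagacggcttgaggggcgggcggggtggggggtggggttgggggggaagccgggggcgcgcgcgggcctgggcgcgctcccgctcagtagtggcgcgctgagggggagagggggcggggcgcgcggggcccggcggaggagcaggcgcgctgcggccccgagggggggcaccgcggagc
Cnp: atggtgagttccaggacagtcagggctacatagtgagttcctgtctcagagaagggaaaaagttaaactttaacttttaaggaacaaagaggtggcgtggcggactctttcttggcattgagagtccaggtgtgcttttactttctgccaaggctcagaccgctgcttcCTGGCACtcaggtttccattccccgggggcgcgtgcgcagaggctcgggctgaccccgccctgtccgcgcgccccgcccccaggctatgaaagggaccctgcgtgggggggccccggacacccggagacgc
Opalin: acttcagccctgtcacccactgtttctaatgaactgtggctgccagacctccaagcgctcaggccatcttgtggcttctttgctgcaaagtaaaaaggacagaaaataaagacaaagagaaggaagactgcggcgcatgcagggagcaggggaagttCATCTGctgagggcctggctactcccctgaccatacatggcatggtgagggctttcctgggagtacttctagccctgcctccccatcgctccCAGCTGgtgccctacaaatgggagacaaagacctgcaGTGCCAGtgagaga
Hapln2: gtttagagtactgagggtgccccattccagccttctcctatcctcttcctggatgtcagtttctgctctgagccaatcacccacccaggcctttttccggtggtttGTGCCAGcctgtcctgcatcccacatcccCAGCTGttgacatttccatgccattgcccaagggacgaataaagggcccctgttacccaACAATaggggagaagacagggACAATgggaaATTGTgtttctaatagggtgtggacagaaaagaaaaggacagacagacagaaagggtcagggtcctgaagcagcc
The Vcan and Ugt8a windows hold none of the 4 motifs, and the Cnp window holds CTGGCAC alone, beginning 81 bases before the start. The Opalin window holds both E-box forms, and 37 bases after the start the Myrf core on the opposite strand, there read as GTGCCAG. The Hapln2 window holds the Myrf core at -144, also on the opposite strand, CAGCTG at -115 and 3 copies of the Sox core.

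Of the 36 members, 27 had a promoter in the table, with 41 promoters among them because some genes have several starts. The Myrf core stood in 5 of the 41 (12.2%) against 5.01% of the 32851 promoters of all genes, and the members holding it were Cnp, Hapln2, Mag and Opalin. The other motifs stood in shares nearer to those of all promoters. CAGCTG was in 6 (14.6% against 16.3%), CATCTG in 8 (19.5% against 17.2%) and the Sox core in 14 (34.1% against 31.0%). The motifs differ in length, so their background shares differ, and a match is a description of letters and no evidence of binding. Of the 4 members that hold the Myrf core, none was called in any comparison.

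The members spanned a wide range of abundance. Per kilobase of merged exon length, the mean normalized count was highest for Mbp, the basic protein of compact myelin, at 5864. Next came Trf (transferrin, the iron carrier, 1953), Cnp (a nucleotide phosphodiesterase of uncompacted myelin, 1527), Olig1 (1157), Cldn11 (the tight-junction claudin of myelin, 1041), Mal (a raft proteolipid, 1017) and Mag (the adhesion protein facing the axon, 1008). The lowest were Enpp6 (10.2), Vcan (17.8) and Sox6 (26.5). Median levels per kilobase were 242 for the 21 myelin genes, 291 for the 5 factors and 66.7 for the 10 precursor genes. The members together held 0.566% of the mean normalized counts of all genes, and Mbp alone 0.274%. Slc17a7, the vesicular glutamate transporter of cortical excitatory neurons, reached a mean normalized count of 36091, per the authors' deposited tables, so the defining neurons of the labelled tissue were present.

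In Grn+/- mice against wild type, 3 of 36 members were called, all lower, and all 3 were precursor genes (Gpr17, Vcan and Sox6). Across all genes in that comparison 6.8% of the 13482 genes were called, 4.51% lower and 2.29% higher, so 3 of 36 is close to the share of all genes. No lineage factor and no myelin gene was called. All 36 log2 fold changes were nonetheless below 0, where 47.6% of all genes were, with a median of -0.15 (90.2% of wild type) beside 0.01 for all genes. The members share libraries and many share cells, so these 36 values are not independent of each other. By unadjusted p under 0.05, 6 members passed, a share below the 20.2% of all genes.

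Against wild type, 3 of 36 members were again called in Grn-/-; GRNtg mice, all lower, and they were the precursor genes Tnr and Sox6 and the myelin gene Ugt8a. The background was 4.87% of 14961 genes, with 3.05% lower and 1.81% higher. Here 32 of 36 log2 fold changes were below 0, against 48.7% of all genes, and the median was -0.23 (85.5% of wild type). The 4 above 0 were all precursor genes: Pdgfra, Cspg4, Matn4 and Lhfpl3. By unadjusted p under 0.05, 12 members passed, 33.3% against 20.5% of all genes. Both comparisons use the same 5 wild-type mice, so a departure of those mice would appear in both, and their likeness is not taken as a result. When each table's Wald statistics were divided by their own robust spread (1.49 for Grn+/- and 1.56 for Grn-/-; GRNtg), no member remained called in either comparison. Over all genes that division left 3 of the 917 calls in Grn+/- mice and 5 of the 728 in Grn-/-; GRNtg mice.

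**Figure D1:**
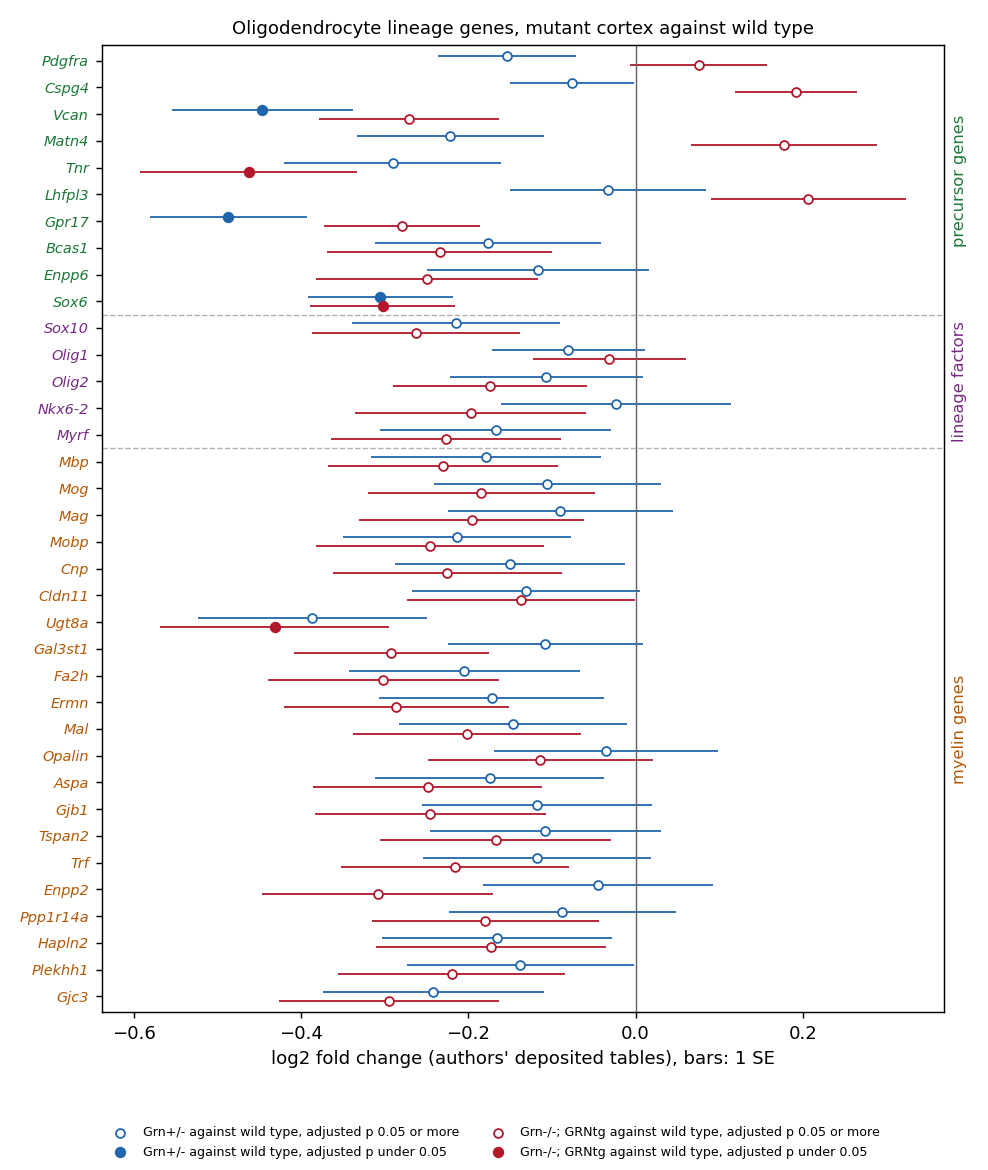
Log2 fold change against wild type for the 36 members, grouped by role, in Grn+/- mice and Grn-/-; GRNtg mice. Points are the authors' estimates, bars are plus or minus the SE and filled points are genes with adjusted p under 0.05. All 36 Grn+/- estimates lie below 0, and the 4 Grn-/-; GRNtg estimates above 0 are precursor genes.

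In Grn-/-; GRNtg mice against Grn+/- mice, a contrast that involves no wild-type level, no member was called by the authors' Wald test. The background was low, with 0.467% of 17562 genes called, 0.148% lower and 0.319% higher. By unadjusted p under 0.05, 5 members passed (13.9% against 8.99% of all genes), and all 5 were precursor genes with a positive log2 fold change: Cspg4, Matn4, Pdgfra, Gpr17 and Lhfpl3. The roles were arranged differently in this comparison. Of the 10 precursor genes, 7 had a positive log2 fold change and the median was 0.19 (114% of Grn+/-). Of 26 further precursor genes 13 had positive values, and their median was 0.01 (101% of Grn+/-). All 21 myelin genes had a negative log2 fold change, with a median of -0.08 (94.7%). Among the factors Olig1 alone was positive, and the median of the 5 was -0.06 (96.0%).

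**Figure D2:**
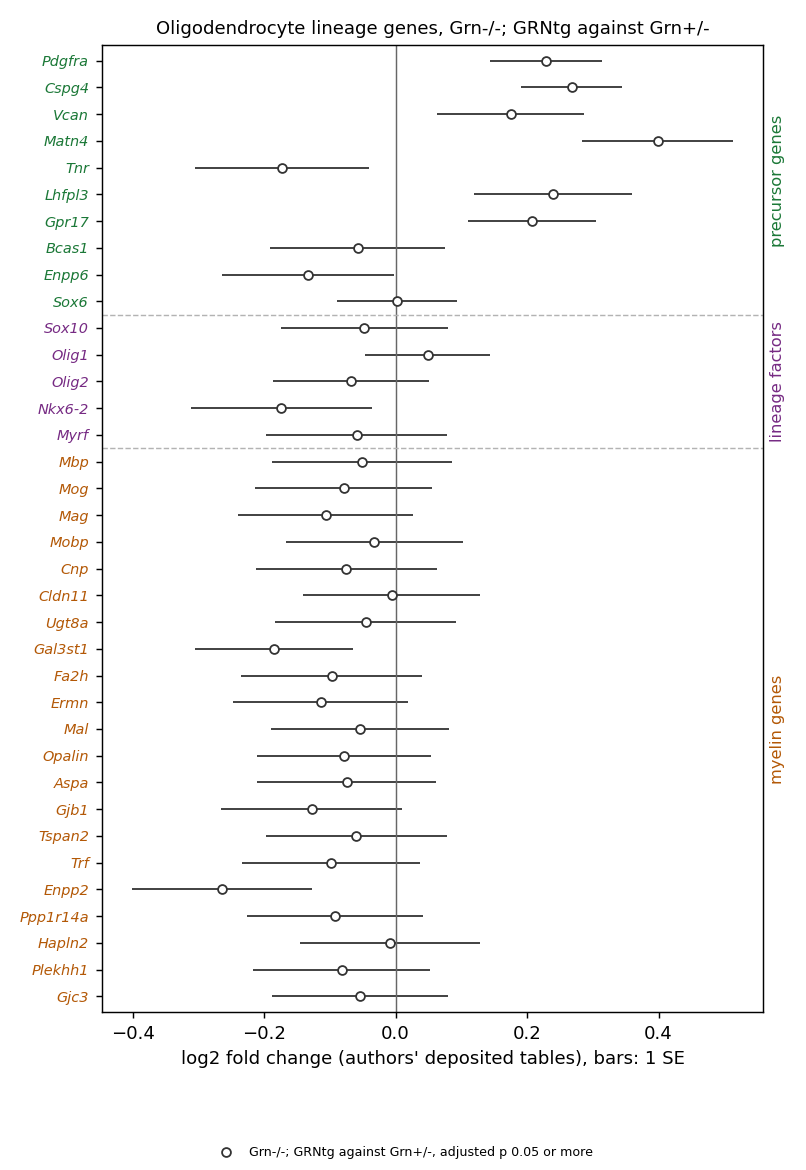
Log2 fold change of Grn-/-; GRNtg mice against Grn+/- mice for the 36 members, grouped by role, with bars of plus or minus the SE. Of the 8 positive estimates 7 belong to precursor genes and all 21 myelin estimates are negative, with adjusted p of 0.05 or more throughout.

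Among receptors of the precursor stage, Gpr17 gave the smallest p of any member. Gpr17 is a G-protein-coupled receptor of committed precursors that must be silenced before a cell matures. The authors' deposited tables give it a mean normalized count of 707. It fell to 71.4% of wild type in Grn+/- mice (95% interval 62.8 to 81.0%; log2 fold change -0.49 ± 0.094 SE, adjusted p = 7.3e-05). In Grn-/-; GRNtg mice it stood at 82.4% (-0.28 ± 0.093 SE, adjusted p = 0.054), just outside the call, and it was called there when only genes with a mean count of at least 100 were adjusted together (adjusted p = 0.047). Between the 2 deficient groups the log2 fold change was 0.21 ± 0.098 SE (adjusted p = 0.49), so a difference between them was not established. Exons of Gpr17 (chr18:31942997-31949636, GRCm38, minus strand) overlap those of Lims2 on the opposite strand by 188 bases. The library kit marked strand, per the labels' protocols, but the strand setting of the counting is unknown here.

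Pdgfra, the receptor through which platelet-derived growth factor drives precursor division, was not called in any comparison. Its level was 89.9% of wild type in Grn+/- mice (-0.15 ± 0.082 SE, adjusted p = 0.28) and 105% in Grn-/-; GRNtg mice (0.08 ± 0.082 SE, adjusted p = 0.64) in the authors' deposited tables. Directly compared, it was 117% in Grn-/-; GRNtg mice of its level in Grn+/- mice (0.23 ± 0.086 SE, adjusted p = 0.29). The unadjusted p of that difference was 0.0076.

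The matrix and surface proteoglycans of precursors were divided among themselves. Vcan encodes versican, a large chondroitin sulfate proteoglycan, at chr13:89655312-89742509 (GRCm38, minus strand). In the authors' deposited tables its mean normalized count was 258, and it fell to 73.4% of wild type in Grn+/- mice (63.4 to 85.0%; -0.45 ± 0.108 SE, adjusted p = 0.0023). In Grn-/-; GRNtg mice it was at 82.9% (-0.27 ± 0.108 SE, adjusted p = 0.11), and the direct difference was 0.18 ± 0.112 SE (adjusted p = 0.70). Cspg4, the NG2 proteoglycan by which precursors are often identified, took another course. It stood at 94.9% of wild type in Grn+/- mice (-0.08 ± 0.074 SE, adjusted p = 0.61) and 114% in Grn-/-; GRNtg mice (0.19 ± 0.073 SE, adjusted p = 0.096). Its level in Grn-/-; GRNtg mice was 120.4% of that in Grn+/- mice (109 to 134%; 0.27 ± 0.077 SE, adjusted p = 0.070), which missed the call.

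Matn4, an adaptor protein of the extracellular matrix, had the largest positive direct difference of the members. In the authors' deposited tables it stood at 85.8% of wild type in Grn+/- mice (-0.22 ± 0.112 SE, adjusted p = 0.24) and at 113% in Grn-/-; GRNtg mice (0.18 ± 0.111 SE, adjusted p = 0.36). Directly compared, its level was 132% (113 to 154%; 0.40 ± 0.115 SE, adjusted p = 0.074), and it was not called. Tnr encodes tenascin-R, a matrix glycoprotein of perineuronal nets that some neurons make as well, at chr1:159523769-159931729 (plus strand). It fell to 72.6% of wild type in Grn-/-; GRNtg mice (60.8 to 86.6%; -0.46 ± 0.130 SE, adjusted p = 0.017) and stood at 81.8% in Grn+/- mice (-0.29 ± 0.130 SE, adjusted p = 0.17). The direct difference of Tnr was -0.17 ± 0.132 SE (adjusted p = 0.78). An antisense gene, Gm38039, overlaps its exons by 443 bases.

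Sox6, a factor that holds precursors in the undifferentiated state and is also made by a class of inhibitory neurons, was the only member called in both comparisons with wild type. It lies at chr7:115470872-116038796 (minus strand) and averaged 394 normalized counts, per the authors' deposited tables. It fell to 80.9% of wild type in Grn+/- mice (71.9 to 91.1%; -0.31 ± 0.087 SE, adjusted p = 0.014) and to 81.1% in Grn-/-; GRNtg mice (72.0 to 91.3%; -0.30 ± 0.087 SE, adjusted p = 0.020). The direct difference was 0.00 ± 0.091 SE, an interval of 88.5 to 113% of the Grn+/- level. Lhfpl3, a tetraspan membrane protein of precursors, was at 97.8% and 115% of wild type with neither called.

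The remaining genes of committed and newly forming cells were not called. In the authors' deposited tables Bcas1, which marks cells beginning to myelinate, had log2 fold changes of -0.18 in Grn+/- mice, -0.23 in Grn-/-; GRNtg mice and -0.06 between them. Enpp6, a choline phosphodiesterase of newly forming oligodendrocytes, had -0.12, -0.25 and -0.13. The 3 genes of this short stage thus all had negative values against wild type, with Gpr17 alone called and in Grn+/- mice only by this threshold. The median of the 10 precursor genes was -0.20 in Grn+/- mice and -0.24 in Grn-/-; GRNtg mice, but in the latter it covered values from -0.46 (Tnr) to 0.21 (Lhfpl3).

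The 5 transcription factors had smaller differences, and none was called. Sox10, which is needed throughout the lineage, had the smallest p of the factors against wild type. In the authors' deposited tables it was at 86.2% of wild type in Grn+/- mice (-0.21 ± 0.124 SE, adjusted p = 0.33) and 83.4% in Grn-/-; GRNtg mice (-0.26 ± 0.124 SE, adjusted p = 0.20), with a direct difference of -0.05 ± 0.127 SE (adjusted p = 0.96). Myrf, the factor that drives myelin gene expression, was at 89.0% (-0.17 ± 0.138 SE, adjusted p = 0.53) and 85.5% (-0.23 ± 0.138 SE, adjusted p = 0.35), with a direct difference of -0.06 ± 0.138 SE (adjusted p = 0.96). Olig2, which specifies the lineage, was at 92.9% (-0.11 ± 0.116 SE, adjusted p = 0.66) and 88.6% (-0.17 ± 0.116 SE, adjusted p = 0.40), with a direct difference of -0.07 ± 0.119 SE (adjusted p = 0.94).

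Olig1, its neighbour and partner, had the narrowest intervals of the 5 factors. Its log2 fold changes in the authors' deposited tables were -0.08 ± 0.092 SE in Grn+/- mice (adjusted p = 0.68), -0.03 ± 0.092 SE in Grn-/-; GRNtg mice (adjusted p = 0.88) and 0.05 ± 0.095 SE between them (adjusted p = 0.95). The 95% interval against wild type was 83.5 to 107% in Grn+/- mice and 86.4 to 111% in Grn-/-; GRNtg mice. Nkx6-2, a homeodomain factor of maturing cells, had -0.02 ± 0.138 SE (adjusted p = 0.95), -0.20 ± 0.138 SE (adjusted p = 0.42) and -0.17 ± 0.138 SE (adjusted p = 0.79). The factors that mark all cells of the lineage, Sox10, Olig1 and Olig2, were thus not called in any comparison, with Sox10 in Grn-/-; GRNtg mice at an unadjusted p of 0.035. The 95% intervals of Sox10 and Olig2 in Grn+/- mice reached down to 72.8% and 79.4% of wild type. A fall of the size seen for Sox6 (to 80.9%) was within those 2 intervals, but not within that of Olig1 (83.5 to 107%).

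The 21 myelin genes all had negative log2 fold changes in both comparisons with wild type. The one call among them was Ugt8a in Grn-/-; GRNtg mice. Their median was -0.14 in Grn+/- mice (90.9% of wild type) and -0.23 in Grn-/-; GRNtg mice (85.6%). By unadjusted p under 0.05, 1 myelin gene passed in Grn+/- mice and 6 in Grn-/-; GRNtg mice (4.76% and 28.6%, against 20.2% and 20.5% of all genes). All 21 estimates were also lower in Grn-/-; GRNtg than in Grn+/- mice, with unadjusted p above 0.05 for each.

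Ugt8a had the lowest log2 fold change of the 21 in both comparisons with wild type. It makes galactosylceramide, the main glycolipid of myelin, and lies at chr3:125865271-125938619 (minus strand), with its promoter printed above. It fell to 74.1% of wild type in Grn-/-; GRNtg mice in the authors' deposited tables (61.6 to 89.3%; -0.43 ± 0.137 SE, adjusted p = 0.040). In Grn+/- mice it was at 76.5% (-0.39 ± 0.137 SE, adjusted p = 0.061), just outside the call, and the direct difference was -0.05 ± 0.138 SE (adjusted p = 0.97). Gal3st1, which adds the sulfate that turns galactosylceramide into sulfatide, was at 92.8% in Grn+/- mice (-0.11 ± 0.117 SE, adjusted p = 0.66) and 81.7% in Grn-/-; GRNtg mice (-0.29 ± 0.117 SE, adjusted p = 0.12), with a direct difference of -0.18 ± 0.120 SE (adjusted p = 0.71). Fa2h, which hydroxylates the fatty acids of these lipids, was at 86.8% and 81.1% of wild type. Of these 3 enzymes only Ugt8a was called, and in 1 comparison.

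The structural proteins of the sheath were not called. Mbp, the most abundant member, was at 88.4% of wild type in Grn+/- mice (73.3 to 107%; adjusted p = 0.50) and 85.3% in Grn-/-; GRNtg mice (70.8 to 103%; adjusted p = 0.34) in the authors' deposited tables. Mobp, another basic protein of compact myelin, had log2 fold changes of -0.21 ± 0.136 SE (adjusted p = 0.39), -0.25 ± 0.136 SE (adjusted p = 0.29) and a direct difference of -0.03 ± 0.135 SE (adjusted p = 0.97). Mog, on the outermost surface of the sheath, was at 93.0% and 88.0% of wild type, Mag at 94.0% and 87.3%, and Cnp at 90.1% and 85.6%. Cldn11 was at 91.3% and 91.0%, Mal at 90.3% and 87.0%, and the tetraspanin Tspan2 at 92.8% and 89.0%. Opalin, a transmembrane glycoprotein of mature oligodendrocytes, was closest to wild type in Grn-/-; GRNtg mice among the 21, at 92.4%, and was at 97.6% in Grn+/- mice.

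Enpp2, which encodes the secreted phospholipase autotaxin, had the largest direct difference of the myelin genes. In the authors' deposited tables it was at 97.0% of wild type in Grn+/- mice (-0.04 ± 0.138 SE, adjusted p = 0.90) and 80.7% in Grn-/-; GRNtg mice (-0.31 ± 0.138 SE, adjusted p = 0.17). The direct difference was -0.26 ± 0.137 SE (adjusted p = 0.56), the lowest of the 36 members.

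The gap-junction genes were likewise not called. Gjc3 had log2 fold changes of -0.24 ± 0.132 SE (adjusted p = 0.29), -0.30 ± 0.132 SE (adjusted p = 0.17) and -0.05 ± 0.134 SE (adjusted p = 0.96) in the authors' deposited tables. Gjb1 had -0.12 ± 0.138 SE (adjusted p = 0.69), -0.25 ± 0.138 SE (adjusted p = 0.30) and -0.13 ± 0.138 SE (adjusted p = 0.87). Both encode connexins of oligodendrocytes. The rest of the mature genes lay in the same band. Ermn, a cytoskeletal protein of the sheath, was at 88.8% in Grn+/- mice and 82.0% in Grn-/-; GRNtg mice. Aspa, which breaks down N-acetylaspartate, was at 88.6% and 84.2%, Trf at 92.2% and 86.1%, and Ppp1r14a, an inhibitor of myosin phosphatase, at 94.1% and 88.3%. Hapln2, a link protein of the matrix at nodes of Ranvier, was at 89.2% and 88.7%, and Plekhh1 at 90.9% and 85.9%. Trf shares exons on the same strand with Gm20425 over 2108 bases and is uncertain for that reason. Of the 36 members, 15 overlap an exon of another gene.

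The SE of the myelin genes stood apart from that of other genes at the same abundance. In all 3 of the authors' deposited tables no SE exceeded 0.138, and for 19 of 21 myelin genes (90.5%) in both comparisons with wild type it lay within 0.005 of that ceiling. For precursor genes 1 of 10 did, and for all genes 12.8% in the Grn+/- table and 13.3% in the Grn-/-; GRNtg table. Most genes near the ceiling, 1732 in all for Grn+/- against wild type, had a mean normalized count under 1000. Among the 4214 genes with a mean normalized count of at least 1000, 70 (1.66%) lay there, but among the 13 members that abundant 11 did (84.6%). These 11 were Bcas1, Cldn11, Cnp, Enpp2, Mag, Mal, Mbp, Mobp, Myrf, Trf and Tspan2. The median SE was 0.136 for myelin genes in Grn+/- against wild type, 0.110 for precursor genes and 0.082 for 14 astrocyte markers. The median gene of that table had an SE of 0.094, so intervals of myelin genes were wider than those of most genes. A ceiling means that the SE need not grow further with the spread between mice, and under a zero-centred prior the fold changes of genes at the ceiling would be those pulled most towards 0. Whether 1 mouse or several widened these values cannot be read from the tables.

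**Figure D3:**
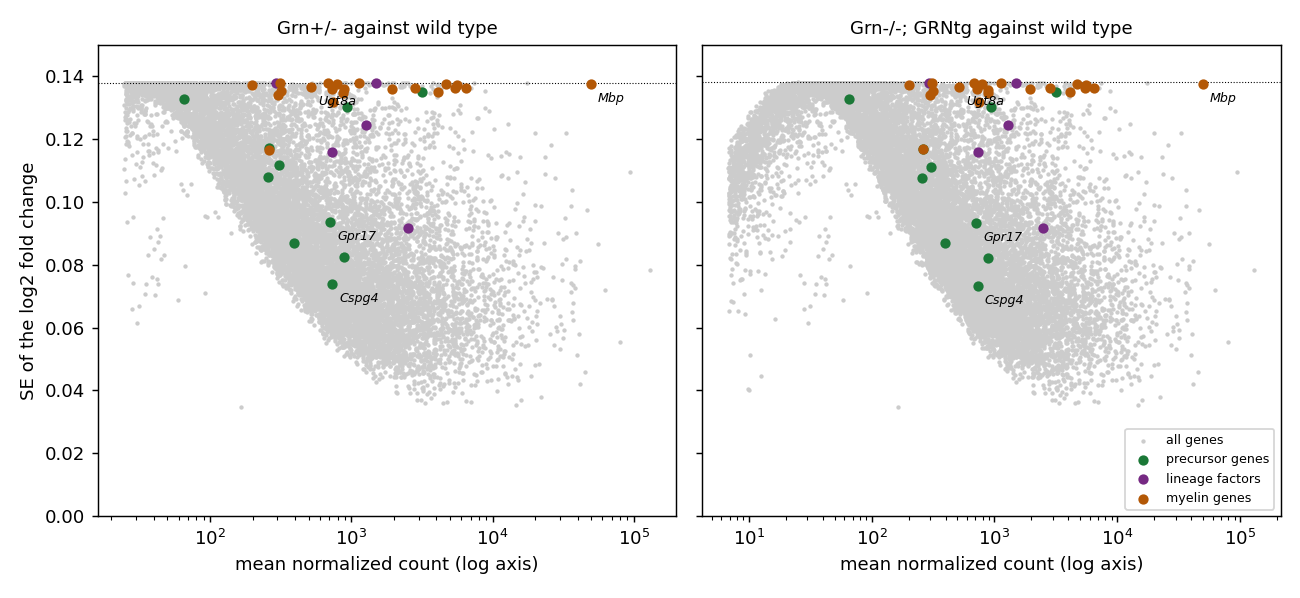
Standard error of the log2 fold change against mean normalized count on a log axis, for each deficient group against wild type, with all genes in grey, the members coloured by role and the ceiling dotted. Of the 13 members with a mean count of at least 1000, 11 lie within 0.005 of the ceiling of 0.138, where 1.66% of all genes that abundant lie.

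Further genes of the pathway were read from lists drawn from knowledge of the lineage, also with earlier results of these data known. Of 26 further precursor genes, 3 were called in Grn+/- mice, all lower, where 6.8% of all genes were called and 4.51% were called lower. They were Pcdh15, a protocadherin (69.6% of wild type; -0.52 ± 0.102 SE, adjusted p = 9.1e-05), Ptprz1, a receptor phosphatase shared with astrocytes (73.0%; -0.45 ± 0.090 SE, adjusted p = 0.00011), and Itpr2, a calcium channel of committed cells and astrocytes (80.2%; -0.32 ± 0.089 SE, adjusted p = 0.012), in the authors' deposited tables. Lower and called in Grn-/-; GRNtg mice were Ptprz1 (76.8%, adjusted p = 0.0026), Itpr2 (81.7%, adjusted p = 0.030) and Luzp2 (79.7%, adjusted p = 0.0039). Across all genes 4.87% were called in that comparison, 3.05% lower. The median of the 26 was -0.04 in Grn+/- mice and 0.01 in Grn-/-; GRNtg mice, with 17 and 12 values below 0. An unadjusted p under 0.05 was reached by 7 (26.9%) and 9 (34.6%) of them, against 20.2% and 20.5% of all genes.

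Among further regulators, 21 of 22 were measured against wild type, and in Grn+/- mice Tcf4, a partner of Olig factors that neurons make too, fell to 80.3% (adjusted p = 0.00087). Id2, an inhibitor of helix-loop-helix factors, rose to 123% (adjusted p = 0.032), both in the authors' deposited tables. In Grn+/- mice 6 of the 21 regulators had an unadjusted p under 0.05 (28.6%, against 20.2% of all genes), and 6.8% of all genes were called. No regulator was called in Grn-/-; GRNtg mice, where 4 had an unadjusted p under 0.05 (19.0%, against 20.5% of all genes). Among growth and differentiation signals, 28 of 33 were measured in Grn+/- mice, and 7 had an unadjusted p under 0.05 (25%). The neuregulin receptors Erbb3 (75.7%; -0.40 ± 0.129 SE, adjusted p = 0.034) and Erbb4 (73.5%; -0.44 ± 0.130 SE, adjusted p = 0.018) fell, and Omg, a myelin-associated inhibitor of neurite growth that neurons also make, rose to 121% (adjusted p = 0.0026). The mean normalized count of Erbb4 was 59.0. Erbb2 and Nrg1, of the same list, were each at 101% of wild type in Grn+/- mice and not called. Erbb3 also fell in Grn-/-; GRNtg mice, to 72.5% (-0.46 ± 0.129 SE, adjusted p = 0.016), the only signal called there. Of 31 signals measured in that comparison, 7 had an unadjusted p under 0.05 (22.6%).

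The further genes of myelin and the mature cell were mostly below wild type in their estimates. Of 51 measured, 47 had a negative log2 fold change in Grn+/- mice (median -0.12, none called) and 49 in Grn-/-; GRNtg mice (median -0.19). By unadjusted p under 0.05, 1 passed in Grn+/- mice (1.96%) and 13 in Grn-/-; GRNtg mice (25.5%). The shares of all genes were 20.2% and 20.5%. Of the 51, 3 fell in Grn-/-; GRNtg mice: Sgk1, a stress-responsive kinase (74.8%, adjusted p = 0.041), Kcnj10, a potassium channel that is mainly astrocytic in cortex (76.2%, adjusted p = 0.0093), and Kif5a, a kinesin that is mainly neuronal (79.1%, adjusted p = 0.045). In the lipid list of 32 genes the median was near 0 in both (-0.02 and -0.02). The values ran from -0.27 to 0.21 in Grn+/- mice and from -0.32 to 0.21 in Grn-/-; GRNtg mice. Of the 32, 8 (25%) and 13 (40.6%) had an unadjusted p under 0.05, against 20.2% and 20.5% of all genes. Elovl6, which lengthens fatty acids, fell in Grn+/- mice (84.7%, adjusted p = 0.043) and Scd2, which desaturates them, fell in Grn-/-; GRNtg mice (84.6%, adjusted p = 0.039). Psap, the precursor of the lysosomal saposins and a binding partner of progranulin, rose to 111% (adjusted p = 0.011) and 109.5% (adjusted p = 0.042). In the direct comparison none of these lists held a called gene.

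**Figure D4:**
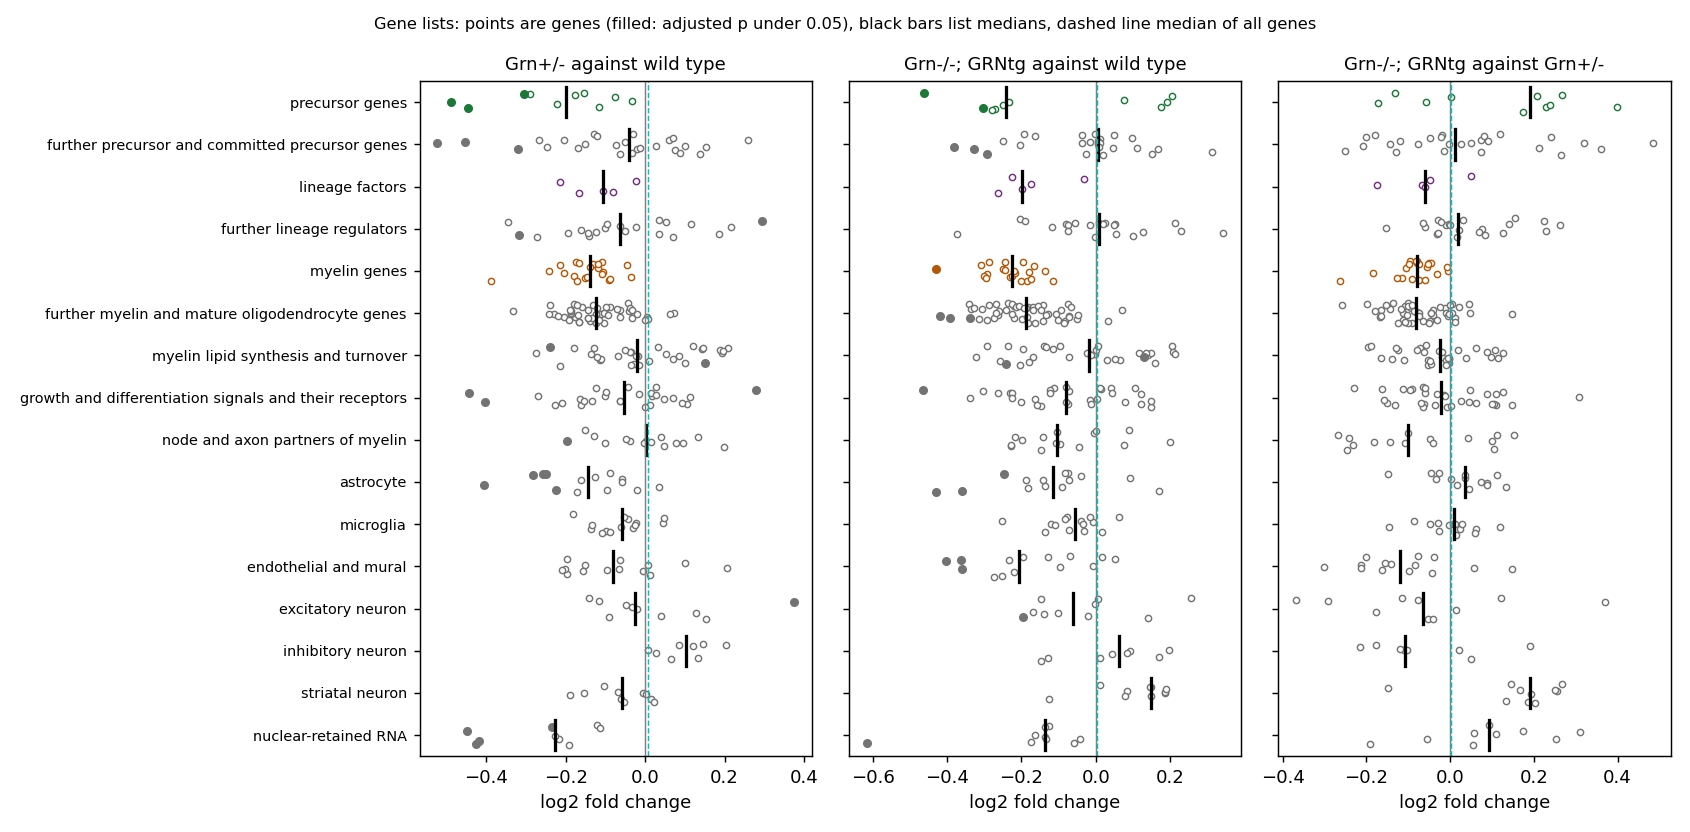
Log2 fold changes of the genes of each list in the 3 comparisons, 1 point a gene (filled where adjusted p was under 0.05), with black bars at list medians and a dashed line at the median of all genes. Myelin members have medians of -0.14, -0.23 and -0.08, precursor members -0.20, -0.24 and 0.19, and all genes lie near 0.

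Markers of other cell types differed between groups as well, and their part in the members' values was not tested. Of 14 astrocyte markers, 13 had negative log2 fold changes in Grn+/- mice (median -0.14), and Slc1a2, Gja1, Slc4a4, Ppp1r3c and S1pr1 fell. Of the 14, 12 were negative in Grn-/-; GRNtg mice (median -0.11), and Slc4a4, Ppp1r3c and S1pr1 fell. An unadjusted p under 0.05 was reached by 7 astrocyte markers (50%) in Grn+/- mice and 5 (35.7%) in Grn-/-; GRNtg mice. Of 14 endothelial and mural markers none was called in Grn+/- mice, and 2 (14.3%) had an unadjusted p under 0.05. In Grn-/-; GRNtg mice their median was -0.21, Flt1, Kdr and Slco1c1 fell, and 7 (50%) had an unadjusted p under 0.05. None of 14 microglia markers was called (median -0.06 in both, with 0 and 1 at an unadjusted p under 0.05). Excitatory neuron markers had medians of -0.03 and -0.06, with Rorb higher in Grn+/- mice and Camk2a lower in Grn-/-; GRNtg mice. Inhibitory neuron markers had 0.10 and 0.06 with none of 8 called (2, or 25%, with an unadjusted p under 0.05 in each). Among all genes, 20.2% in Grn+/- mice and 20.5% in Grn-/-; GRNtg mice had an unadjusted p under 0.05. The called shares of all genes were 6.8% and 4.87%.

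Measures of RNA composition also differed between groups. All 9 transcripts retained in the nucleus had negative log2 fold changes in both comparisons with wild type (median -0.23 in Grn+/- and -0.14 in Grn-/-; GRNtg mice). Malat1, Mirg, Rian and Kcnq1ot1 fell in Grn+/- mice, and Malat1 fell in Grn-/-; GRNtg mice. Reads assigned to no gene, 17.0% of all mean normalized counts, had log2 fold changes of -0.22 ± 0.052 SE (adjusted p = 0.0019) and -0.18 ± 0.052 SE (adjusted p = 0.024) in the deposited tables of the authors, and did not differ detectably between the deficient groups (0.04 ± 0.054 SE, adjusted p = 0.91). The part of these differences in the members' values was not tested. In the direct comparison, where the 10 precursor members had their positive median and the 26 further precursor genes a median of 0.01, nuclear transcripts had a median of 0.09, astrocyte markers 0.03 and markers of striatal neurons, which cortex should hold few of, 0.19. None of the 10 striatal markers was called there, and 2 had an unadjusted p under 0.05 (20%, against 8.99% of all genes). Their medians against wild type were -0.06 in Grn+/- mice and 0.15 in Grn-/-; GRNtg mice.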

How the data were processed

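Total RNA from cortex was made into libraries with a strand-marking kit, per the labels' protocols. The submitters' processing notes name mm10, R 4.1.2 and DESeq2 1.34.0. The aligner, counter, annotation, counting strand and whether fold changes were shrunken are not stated in the sources used. Per the file headers, the authors deposited for each gene a signal (normalized count averaged over mice), a log2 fold change with its SE, a Wald score, and a p-value with an adjusted p-value. The Wald score equals the fold change over its SE, the adjusted p-value equals Benjamini-Hochberg over the rows of each table, and the 3 tables' fold changes are additive. Beside 13482, 14961 and 17562 genes, each table has 2 entries that name no gene (no feature, 17.0% of mean normalized counts, and ambiguous, 0.606%), left out here. The lowest mean normalized counts were 24.7, 6.83 and 0.523.

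No count test was run: percents, intervals, medians and counts of calls were computed from the deposited values with Python 3.11.15, pandas 2.3.3, numpy 2.4.6 and scipy 1.17.1, after a test on simulated data. Positions, merged exon lengths and overlaps come from GENCODE annotation of GRCm38 (mm10), and promoters from RefSeq. The members and lists were chosen with earlier results of these data known. All members are named, with full values for those called and for the 3 with the smallest p per role and table. Listed genes outside the members are named where called. The labels do not say whether the mice came from separate litters. Replicates per group number 5, 4 and 4.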

Additional observations from a re-analysis of the deposited data

How the results depend on the processing

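No paired analysis was possible because the deposited tables hold no values per mouse. Leaving out each mouse in turn was not run for the same reason. Dividing the Wald statistics by their robust spread left 0 of 36 members called in Grn+/- mice and 0 in Grn-/-; GRNtg mice (3 of 36 each as deposited). Over all genes it left 3 of 917, 5 of 728 and, between the deficient groups, 29 of 82. Adjusted p of the called members then ran from 0.17 (Gpr17) to 0.57 (Sox6) in Grn+/- mice and was 0.99 for Tnr, Sox6 and Ugt8a in Grn-/-; GRNtg mice. With adjusted p under 0.10, 5 members were called in Grn-/-; GRNtg mice (Cspg4 and Gpr17 added) and 2 between the deficient groups (Cspg4 and Matn4). All-gene counts at that threshold were 1423, 1396 and 159. A minimum absolute log2 fold change of 0.3 left 499, 454 and 69 genes, and the members called were the same 3 in each comparison with wild type. In the direct comparison 43 genes were called when p was adjusted over the genes in all 3 tables, and 36 with a mean count of at least 100. Of the alternatives for counts and role medians, 29 stayed close and 4 counts moved. Close meant within 1.5 times the reported count or within 1 median SE of the reported median. The alternatives for medians had little room to move. The shift of all genes was 0.01 or less on the log2 scale, and only Enpp6 among the members had a mean count under 100 (65.6). For Grn+/- mice against wild type, the genes in all 3 tables are the same 13482, so adjusting over them could not change the calls.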

Other observations

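The partners of myelin on the axon were mixed. Of 15 genes of the node, paranode and axon, 7 had negative log2 fold changes in Grn+/- mice (median 0.00) and 11 in Grn-/-; GRNtg mice (median -0.10). Sptbn4, the spectrin that anchors sodium channels at nodes and axon initial segments, fell to 87.3% of wild type in Grn+/- mice (-0.20 ± 0.060 SE, adjusted p = 0.025) in the authors' deposited tables and stood at 93.6% in Grn-/-; GRNtg mice (adjusted p = 0.36). No gene of the list was called in Grn-/-; GRNtg mice, where 3 had an unadjusted p under 0.05 (20%, against 20.5% of all genes).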
